A study of Canis lupus familiaris with 6 samples.

Results

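CXC chemokines are small secreted or membrane-anchored proteins that guide leukocytes through G protein-coupled receptors, the CXCR proteins. CXCL8 (interleukin-8) and CXCL6 bind CXCR1 and CXCR2 and are known as attractants of neutrophils. CXCL10 is induced by interferons and binds CXCR3 on activated T cells and natural killer (NK) cells, CXCL16 binds CXCR6, CXCR4 holds leukocytes in the bone marrow through CXCL12, and CXCR5 brings B cells to follicles through CXCL13. The genes described here are 4 ligands (CXCL6, CXCL8, CXCL10 and CXCL16) and 6 receptors (CXCR1 to CXCR6), matched by symbol in the deposited expression table. Of these 10 symbols, 9 had a row among the 31512 genes of the table. No row carried the symbol CXCR1.

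Whole blood was taken on day 30 from healthy beagle dogs aged 1.5 years, and 1 RNA library was sequenced for each of 3 dogs in the control group and 3 in the CPP-Se group. All dogs ate the same maintenance food and a daily snack of 30 g, which they had received for 7 days before the experiment began. The snack of the control group held no CPP-Se, and that of the CPP-Se group held 0.03% CPP-Se, a chelate of selenium with casein phosphopeptide. Expression was given as FPKM, that is, fragments on a gene per kilobase of its length and scaled by a library size, which was not stated. The reads behind each FPKM could be recovered, and the reads on genes numbered 6598173 to 8067034 per dog.

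The libraries differed in composition. Hemoglobin genes (8 rows) held 36.6% of the reads on genes in CPP-Se replicate 2, against 48.7% to 55.9% in the other 5 dogs, and the library size implied by its FPKM was 1.65 times its reads on genes, against 0.882 to 1.05 times in the others. Fold changes of the members are also given without this dog. An implied size below the reads on genes, as in some dogs, is not a plain total of the library. For genes tested that were detected in every dog, the median ratio of a dog to the geometric mean of the dogs was 0.995 to 1.02. The FPKM thus already had nearly a common median. Blood cell types were checked with marker lists. Markers of neutrophils, monocytes, T cells, B cells, NK cells, platelets and red cells were present, although 4 of the 12 neutrophil markers (S100A9, FPR1, FPR2 and PADI4) had no row under their symbol. Rows were also missing for CD14 (monocytes), CD247 and CD8B (T cells), CR2 (B cells) and NKG7 (NK cells). Among the platelet markers, GP1BA, GP9 and TREML1 had none.

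CXCR2 was the most abundant member, and CXCL10 was close to absent. Averaged over the 6 dogs, the order of the levels in FPKM was CXCR2, CXCL6, CXCR4, CXCR5, CXCR3, CXCR6, CXCL16, CXCL8 and CXCL10. This order pools the groups. In the control group alone, CXCL8 (mean 5.24 FPKM) stood above CXCL16 (4.74) and CXCR6 (3.69). In the CPP-Se group, their means were 1.62, 2.82 and 5.53 FPKM. CXCR2 lay above 96.7% of the 9847 genes whose mean reached 1 FPKM, CXCL6 above 93.0% and CXCR4 above 86.0%, whereas CXCL8 lay above 37.7%. Some neighbours in this order could not be told apart. CXCL6 exceeded CXCR4 in 5 of 6 dogs, CXCR5 exceeded CXCR3 in 3 of 6, CXCR6 exceeded CXCL16 in 2 of 6, and CXCL16 exceeded CXCL8 in 5 of 6. CXCR2 exceeded CXCL6 and CXCR3 exceeded CXCR6 in 6 of 6 dogs, although their ranges over the dogs overlapped. The ranges of CXCR4 and CXCR5 did not overlap, nor did those of CXCL8 and CXCL10.

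**Figure D1:**
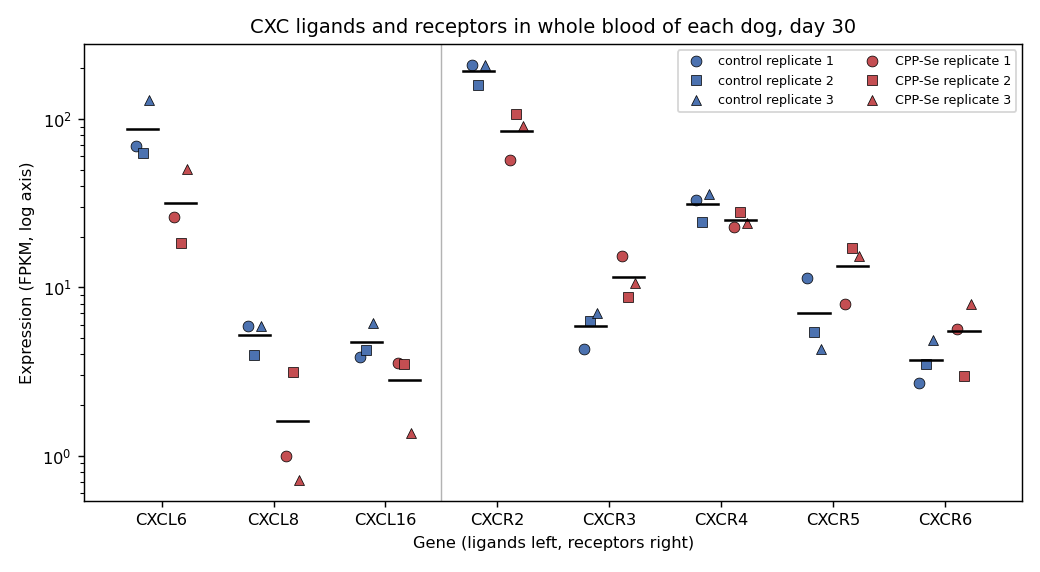
Expression of 3 ligands (left) and 5 receptors (right) in each dog, in FPKM on a log axis, with control dogs in blue, CPP-Se dogs in red, symbols for the replicate number and a line at each group mean. CXCL6, CXCL8, CXCL16 and CXCR2 lie lower and CXCR3 higher in all 3 CPP-Se dogs, and the groups overlap for CXCR4, CXCR5 and CXCR6. CXCL10 is left out because it was at 0 in 4 dogs.

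The comparison of the CPP-Se with the control group asks how the supplement relates to expression in blood. It was made on log2(FPKM + 1) in the 9847 genes, by limma with Benjamini-Hochberg adjustment over all of them, and a gene was called at an adjusted p under 0.05 with a fold change of at least 1.5. Of the 9 members with a row, 8 were tested and CXCL10 was under the filter. None of the 8 was called, and their adjusted p from limma were 0.143 to 0.568. In all genes tested, 3 were called, or 0.0305%. An unadjusted p under 0.05 was found for 3 members that were lower in the CPP-Se group (CXCL6, CXCL8 and CXCR2), where 9.1% of all genes tested were lower at that level, and for 1 that was higher (CXCR3), where 6.87% were higher. All 3 CPP-Se dogs lay below all 3 control dogs in 4 members, against 12.6% of all genes, and above them in 1 member, against 10.4% of all genes. The median log2 fold change was -1.35 over the 3 ligands tested and 0.43 over the 5 receptors, and that over all genes tested was -0.0043. The members were listed with earlier results of these dogs known, so these counts are a description of the family.

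**Figure D2:**
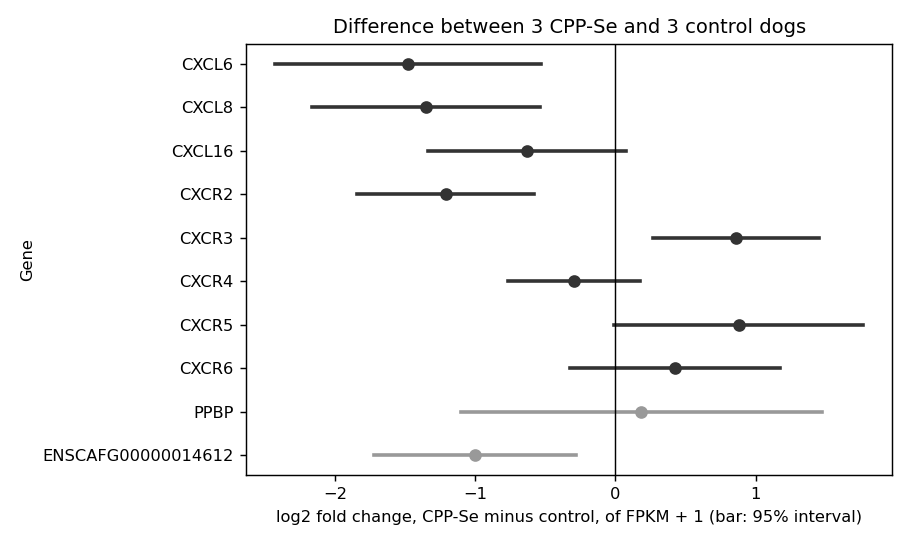
Log2 fold change of FPKM + 1, CPP-Se minus control, for 8 members (dark) and 2 related genes (grey), with bars for the 95% interval of the limma fit on 3 dogs per group. The intervals of CXCL6, CXCL8, CXCR2 and ENSCAFG00000014612 lie below 0, that of CXCR3 lies above 0, and the others include 0.

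Among the ligands, CXCL8 (ENSCAFG00000003029, chromosome 13, 62434422 to 62438354, plus strand) encodes interleukin-8, which blood leukocytes make quickly when stimulated. Its FPKM were 5.86, 3.98 and 5.89 in the controls (replicates 1, 2 and 3, the order used throughout), against 0.991, 3.15 and 0.718 with CPP-Se. The CPP-Se dogs were all below the control dogs, with CPP-Se replicate 2 close to control replicate 2 and the other CPP-Se dogs far lower. The group means were 5.24 ± 1.10 FPKM and 1.62 ± 1.33 FPKM (SD, n = 3 dogs in each group, as for all means below), so the control mean was 3.24 times the CPP-Se mean. The log2 fold change was -1.35 (standard error 0.35, 95% interval -2.16 to -0.54, adjusted p = 0.173 from limma). Few reads stood behind these values: 82, 52 and 97 in controls, against 13, 86 and 9 with CPP-Se. The log2 fold change depended on the pseudocount and on the dogs, at -1.88 with a pseudocount of 0.1 and -1.74 without CPP-Se replicate 2, where its adjusted p from limma was 0.111. It was smaller without CPP-Se replicate 3, at -1.10, and with a common sum of FPKM, at -1.19 (adjusted p = 0.223 and 0.375 from limma).

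CXCL6 (ENSCAFG00000025016, chromosome 13, 62513898 to 62515218, plus strand) encodes granulocyte chemotactic protein 2, which acts through the same receptors as CXCL8. Its FPKM were 68.7, 62.6 and 129.5 without the chelate, against 26.1, 18.4 and 50.2 with it, with 118 to 735 reads behind each value. The highest dog of each group was replicate 3, and the groups did not overlap. The group means were 86.9 ± 36.996 FPKM and 31.6 ± 16.6 FPKM, and the log2 fold change was -1.48 (standard error 0.41, 95% interval -2.42 to -0.53, adjusted p = 0.183 from limma). Without control replicate 3, the highest dog, it was -1.15, without CPP-Se replicate 2 it was -1.16, and without CPP-Se replicate 3 it was -1.86. At the mean of 6 dogs CXCL6 was far more abundant per length than CXCL8, and the ratio of their FPKM ranged from 11.7 to 22.0 in the control dogs and from 5.84 to 70.0 in the CPP-Se dogs, so these ratios overlapped.

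CXCL8 and CXCL6 lie in the same stretch of chromosome 13, 75543 bases apart, and CXCL6 is followed after 11352 bases by PPBP (ENSCAFG00000031174, chromosome 13, 62526571 to 62528527, plus strand). PPBP encodes platelet basic protein, also named CXCL7, a ligand of CXCR2 that platelets store in their granules. Its FPKM were 353, 311 and 735 in controls, against 396, 268 and 1116 with CPP-Se, and the fitted log2 fold change was 0.18 (standard error 0.55, 95% interval -1.10 to 1.47, adjusted p = 0.905 from limma). Unlike CXCL6, PPBP showed no separation of the groups, and its direction turned with the dog left out, from -0.41 without CPP-Se replicate 3 to 0.62 without CPP-Se replicate 2.

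Within each group, however, the dogs stood in the same order for CXCL6 and PPBP. The ratio of CXCL6 to PPBP was 0.195, 0.201 and 0.176 without the chelate, against 0.0659, 0.0686 and 0.0450 with it. This ratio is taken within a dog, so no scaling between dogs enters it. It varied little inside a group although both genes varied more than 2-fold there. On the log2 scale, the ratio was -2.39 ± 0.10 in the control group and -4.09 ± 0.34 in the CPP-Se group, a difference of -1.69 (exact permutation test, two-sided, p = 0.1, the smallest that 3 dogs against 3 can give). CXCL6 was also set beside the mean of 5 platelet markers. CXCL6 minus that mean was 0.12 ± 0.10 in the control dogs and -1.14 ± 0.32 in the CPP-Se dogs on the scale of log2(FPKM + 1), a difference of -1.25 (exact permutation test, two-sided, p = 0.1), while the platelet marker mean itself differed by -0.22 (exact permutation test, two-sided, p = 0.7). The summed FPKM of the 5 platelet markers with a row was 420 to 854 in controls, against 260 to 699 with CPP-Se, and 0 of these markers was at 0 in all dogs. Both comparisons were chosen after the values had been seen.

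The next row on chromosome 13 beyond PPBP, 6062 bases away on the same strand, is a long noncoding RNA without a symbol, ENSCAFG00000042676 (62534590 to 62643441), which was also chosen after its values had been seen. It had 66.0, 57.8 and 44.5 FPKM in the control dogs and 18.4, 24.8 and 17.9 FPKM in the CPP-Se dogs. The groups did not overlap, and the log2 fold change was -1.41 (standard error 0.22, adjusted p = 0.138 from limma). Of the rows described in this stretch, CXCL8, CXCL6 and the noncoding RNA were lower in every CPP-Se dog than in any control dog, and PPBP was not. Over all genes tested, 12.6% were lower without overlap. Any other rows of the stretch were not examined, so this is no account of the region. The use of strand in the counting was not given in the sources used here.

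CXCL16 (ENSCAFG00000015892, chromosome 5, 31816667 to 31820840, plus strand) encodes a chemokine that is made as a transmembrane protein by monocytes and other antigen-presenting cells. Its FPKM were 3.87, 4.23 and 6.12 without the chelate, against 3.56, 3.51 and 1.37 with it. The groups did not overlap, but control replicate 1 and CPP-Se replicate 1 were nearly level. Its log2 fold change was -0.63 (standard error 0.30, 95% interval -1.34 to 0.07, adjusted p = 0.362 from limma). It rested largely on CPP-Se replicate 3, without which it was -0.32, and it was -0.78 without CPP-Se replicate 2.

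CXCL10 (ENSCAFG00000008584, chromosome 32, 597987 to 599979, minus strand) encodes the interferon-induced ligand of CXCR3. It had 1 read in control replicate 1, 5 reads in CPP-Se replicate 2 and 0 reads in the other 4 dogs. A count of 3 reads, taken as the floor, corresponds to 0.292 to 0.637 FPKM for this gene, so expression at or below that level was not detectable at this depth. This floor covers counting error only. No difference between the groups could be read for CXCL10. CXCL11, the neighbouring ligand of CXCR3, had 0 reads in every dog. Of 12 interferon response genes, 7 were tested, of which CPP-Se dogs had 4 higher and 3 lower, with a median log2 fold change of 0.06. Among them, ISG15, an abundant ubiquitin-like protein induced by interferons, had a log2 fold change of -0.09 with a wide error (standard error 0.66, adjusted p = 0.963 from limma). OAS2, named here after its values were seen, was the 1 gene of the list at an unadjusted p under 0.05. Its log2 fold change was -1.31, with overlapping groups (adjusted p = 0.281 from limma). Over all genes, 9.1% were lower at that level.

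The other named CXC genes of the table, apart from PPBP, were under the filter on low values. CXCL12, the ligand of CXCR4, had 1 read in all 6 dogs together, and CXCL13, the ligand of CXCR5, and CXCL17 had 0. CXCL14 had 4 reads in control replicate 1 and 1 in CPP-Se replicate 2. The scavenging receptors ACKR1 and ACKR3 had 1 to 12 reads per dog. CXCL1, CXCL2, CXCL3, CXCL5, CXCL9 and PF4 had no row under these symbols and were not analysed here.

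Among the receptors, CXCR2 (ENSCAFG00000014615, chromosome 37, 24843171 to 24844247, plus strand) encodes the receptor for CXCL8, CXCL6 and the other neutrophil attractants. Its FPKM were 209.9, 159.6 and 209.5 in controls, against 57.3, 107 and 90.9 with CPP-Se. Every CPP-Se dog was below every control dog, and CPP-Se replicate 1 was the lowest. The group means were 193 ± 28.9 FPKM and 84.9 ± 25.2 FPKM, so the control mean was 2.27 times the CPP-Se mean. The log2 fold change was -1.21 (standard error 0.27, 95% interval -1.84 to -0.58, adjusted p = 0.143 from limma). CXCR2 had 395 to 1814 reads per dog, so its counting error was small beside the spread between dogs. Without CPP-Se replicate 2 the log2 fold change was -1.40, and without CPP-Se replicate 1 it was -0.95. CXCR2 was the only member that any alternative called: in limma-voom with sample quality weights on the recovered reads, its log2 fold change was -1.39 (standard error 0.24, adjusted p = 0.0407), where 1.58% of all genes tested were called. That fit gave control replicate 1 a weight of 3.02, against 0.538 to 1.15 for the other dogs. Over the other 18 alternatives the adjusted p of CXCR2 from limma or limma-voom was 0.0904 to 0.455. It was highest without control replicate 1.

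Beside CXCR2, 18698 bases away on the other strand, lies a row without a symbol, ENSCAFG00000014612 (chromosome 37, 24862946 to 24865030), whose protein the table describes as a CXCR2. The RefSeq annotation of the UU_Cfam_GSD_1.0 assembly lists CXCR1 as the neighbour of CXCR2, between CXCR2 and ARPC2. That is another assembly than the one of the table, and the row was not counted as CXCR1. Its FPKM were 93.5, 60.7 and 66.5 in controls, against 23.6, 52.2 and 36.4 with CPP-Se, again lower in every CPP-Se dog and lowest in CPP-Se replicate 1. The log2 fold change was -1.001 (standard error 0.31, 95% interval -1.72 to -0.28, adjusted p = 0.207 from limma). CXCR2 had between 2.04 and 3.15 times the FPKM of this row in the 6 dogs, and the groups overlapped in this ratio. How reads shared by near-identical receptor genes were counted was not given in the sources used here, so the values of these rows may not be independent.

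In whole blood, fewer cells of a type and less RNA per cell cannot be told apart, so CXCR2 was set beside the mean log2(FPKM + 1) of the 8 neutrophil markers tested. CXCR2 exceeded this mean by 1.07, 0.98 and 1.32 in the control dogs, and by -0.65, 0.72 and 0.15 in the CPP-Se dogs. The difference between the groups was -1.05 on the log2 scale (exact permutation test, two-sided, p = 0.1, the smallest possible), whereas the marker mean differed by -0.16 (exact permutation test, two-sided, p = 0.5). The markers went both ways: 5 were lower in the CPP-Se group, 4 of them at an unadjusted p under 0.05 and 3 without overlap, and 3 were higher, 1 at that level, with a median log2 fold change of -0.43 and 0 called. Over all genes, 9.1% were lower and 6.87% higher at that level, and 12.6% were lower without overlap. MMP9, a granule protease named here after its values were seen, stood apart, at 83.6 ± 14.2 FPKM in controls against 431 ± 365 FPKM with CPP-Se. Without MMP9, a choice made after seeing the data, the mean of the other 7 markers was itself lower in every CPP-Se dog, by -0.37, and CXCR2 relative to it differed by -0.84 (exact permutation tests, two-sided, p = 0.1 for each). The unnamed row beside CXCR2 differed by -0.84 relative to the 8 markers, with overlapping groups (exact permutation test, two-sided, p = 0.3). The most abundant, CSF3R (the receptor for granulocyte colony-stimulating factor) and S100A8 (a calcium-binding protein of neutrophils), had log2 fold changes of -0.89 and -0.18 (adjusted p = 0.196 and 0.881 from limma). The summed FPKM of the list was 1988 to 2693 without the chelate, against 1594 to 2123 with it. The part of neutrophil number in the CXCR2 difference was not tested.

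CXCR3 (ENSCAFG00000017146, chromosome X, 55882433 to 55884582, minus strand) encodes the receptor for interferon-induced chemokines on activated T cells and NK cells. Its FPKM were 4.28, 6.33 and 7.05 in controls, against 15.3, 8.83 and 10.7 with CPP-Se. It was the only member that was higher in every CPP-Se dog than in any control dog, and CPP-Se replicate 1, lowest for CXCR2, was highest for CXCR3. The group means were 5.89 ± 1.44 FPKM and 11.6 ± 3.33 FPKM, and the log2 fold change was 0.86 (standard error 0.26, 95% interval 0.27 to 1.45, adjusted p = 0.193 from limma). Without CPP-Se replicate 1 it was 0.66, and without CPP-Se replicate 2 it was 1.02.

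T cell and NK markers were higher beside CXCR3, and their part in the CXCR3 difference was not tested. Of 10 T cell markers tested, 10 were higher in the CPP-Se group, with a median log2 fold change of 0.74, 5 of them without overlap, beside 10.4% of all genes, and 0 were called, beside 0.0305%. Their summed FPKM was 102 to 191 without the chelate, against 212 to 292 with it. The most abundant were LCK, a kinase of the T cell receptor, and CD3E, a chain of that receptor, with log2 fold changes of 0.88 and 0.89 (adjusted p = 0.171 and 0.302 from limma). The 7 NK and cytotoxic markers tested were also all higher, with a median of 0.80 and summed FPKM of 12.1 to 26.3 and 31.9 to 52.8 in the control and CPP-Se dogs. Among them, NCR3 and PRF1 had the highest FPKM, with log2 fold changes of 1.17 and 1.31 (adjusted p = 0.314 and 0.138 from limma). Relative to the mean of the 10 T cell markers, CXCR3 differed by 0.16 on the log2 scale between the groups (exact permutation test, two-sided, p = 0.6). The size of this difference was thus smaller than the SD of either group, 0.54 and 0.36.

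CXCR6 (ENSCAFG00000013874, chromosome 20, 42565251 to 42566276, minus strand) encodes the receptor for CXCL16 on memory T cells and NK cells. Its FPKM were 2.71, 3.51 and 4.85 in controls, against 5.63, 3.00 and 7.96 with CPP-Se, with 19 to 50 reads per dog. CPP-Se replicate 2 lay among the control dogs, and the log2 fold change was 0.43 (standard error 0.32, 95% interval -0.32 to 1.18, adjusted p = 0.568 from limma). Without CPP-Se replicate 2 it was 0.74 and without CPP-Se replicate 3 it was 0.16, so CXCR6 could not be placed by these dogs. Relative to the T cell markers it differed by -0.28 (exact permutation test, two-sided, p = 0.7).

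CXCR5 (ENSCAFG00000012439, chromosome 5, 14923089 to 14932762, minus strand) encodes the follicular homing receptor of B cells and follicular helper T cells. Its FPKM were 11.3, 5.43 and 4.31 without the chelate, against 7.91, 17.1 and 15.3 with it. Control replicate 1 exceeded CPP-Se replicate 1, so the groups overlapped. The log2 fold change was 0.88 (standard error 0.38, 95% interval -0.0063 to 1.77, adjusted p = 0.316 from limma), of about the size of that of CXCR3 but with a wider spread between dogs. It was 1.24 without control replicate 1, 0.63 without control replicate 3 and 0.68 without CPP-Se replicate 2, the highest dog (adjusted p = 0.489 from limma). Of the 8 B cell markers tested, 7 were higher, with a median log2 fold change of 0.64 and summed FPKM of 277 to 399 and 420 to 464 in the control and CPP-Se dogs. The most abundant, CD79A and CD79B, the signaling chains of the B cell receptor, had log2 fold changes of 0.26 and 0.75 (adjusted p = 0.613 and 0.261 from limma). Relative to the mean of these markers, CXCR5 differed by 0.33 between the groups (exact permutation test, two-sided, p = 0.4), and the part of B cell number in its difference was not tested.

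CXCR4 (ENSCAFG00000005109, chromosome 19, 38874145 to 38877740, minus strand) is the receptor that most blood leukocytes share. Its FPKM were 33.2, 24.4 and 35.8 in controls, against 22.7, 27.96 and 24.2 with CPP-Se. The groups overlapped, with CPP-Se replicate 2 above control replicate 2. Its log2 fold change was -0.30 (standard error 0.20, 95% interval -0.77 to 0.18, adjusted p = 0.525 from limma), and without CPP-Se replicate 2 it was -0.38. It ranged from -0.46 without control replicate 2 to -0.19 without control replicate 3, and it was -0.14 with a common sum of FPKM. A decrease of the size fitted for CXCR2 lay outside the interval.

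The receptors can also be compared within each dog, where no scaling between libraries enters. CXCR2 held 80.3%, 80.1% and 80.1% of the summed FPKM of the 5 receptors without the chelate, against 52.6%, 65.2% and 61.0% with it. The 3 control dogs were nearly identical in this share, and every CPP-Se dog was lower. Since the shares sum to 100%, a lower share of CXCR2 raises the sum of the others, and their values are given as a description. CXCR3 held 1.64% to 3.17% in controls, against 5.40% to 14.1% with CPP-Se, CXCR5 held 1.65% to 4.33% and 7.27% to 10.5%, and CXCR4 held 12.3% to 13.7% and 16.2% to 20.9%. CXCR6 was the receptor whose share overlapped, at 1.04% to 1.85% and 1.83% to 5.35%. The FPKM of CXCR4 itself was not higher, at 31.1 ± 5.96 in the control and 24.96 ± 2.70 in the CPP-Se group. The ratio of CXCR2 to CXCR3, a pair whose separate levels already set its direction, was 49.0, 25.2 and 29.7 without the chelate, against 3.74, 12.1 and 8.52 with it. Among the ligands the shares overlapped, and CXCL6 held 87.6% to 91.5% of the summed FPKM of the 3 ligands in controls, against 73.4% to 96.0% with CPP-Se.

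**Figure D3:**
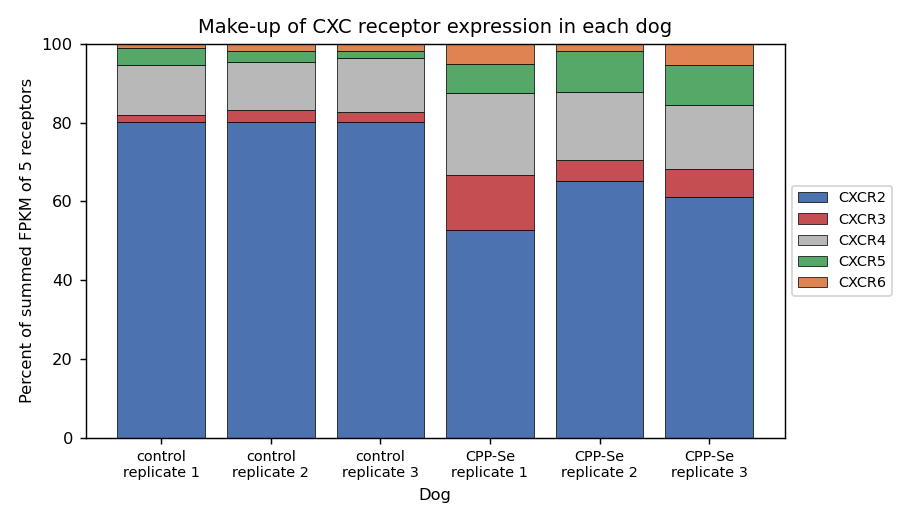
Share of each receptor in the summed FPKM of CXCR2, CXCR3, CXCR4, CXCR5 and CXCR6, in percent, as 1 stacked bar per dog. CXCR2 takes 80.1% to 80.3% without the chelate, against 52.6% to 65.2% with it.

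**Figure D4:**
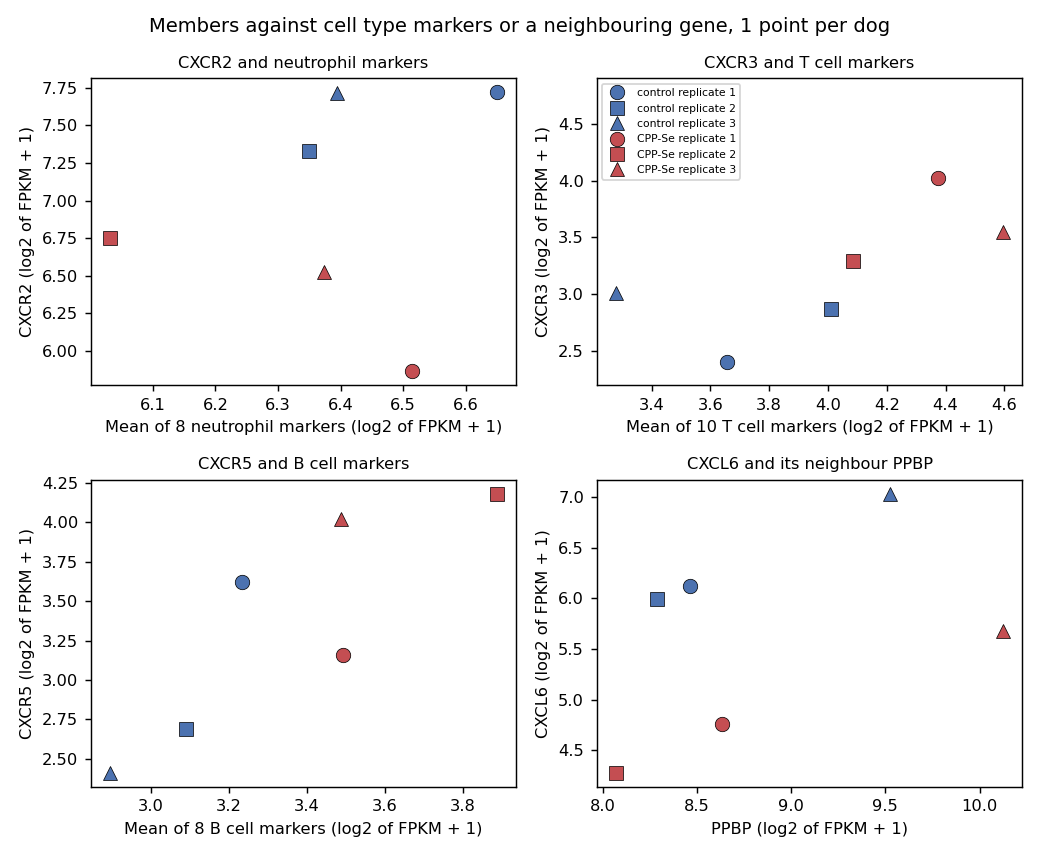
Log2(FPKM + 1) of CXCR2, CXCR3, CXCR5 and CXCL6 (vertical axes) against the mean log2(FPKM + 1) of 8 neutrophil, 10 T cell or 8 B cell markers or against PPBP (horizontal axes), 1 point per dog, with control dogs in blue and CPP-Se dogs in red. For CXCR2 and CXCL6 the groups separate on the vertical axis and overlap on the horizontal axis (for CXCR2, with MMP9 among the markers), whereas for CXCR3 the CPP-Se dogs lie higher on both axes.

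Monocytes express CXCL16 and, when stimulated, CXCL8. The fitted log2 fold changes of the 8 monocyte markers tested were below 0, 6 of them without overlap, beside 12.6% of all genes. That of CX3CR1, named here after its values were seen, was near 0 (-0.03, with means of 12.3 and 13.0 FPKM in the control and CPP-Se groups). The list had a median log2 fold change of -0.80 and summed FPKM of 367 to 477 in controls, against 237 to 272 with CPP-Se. The most abundant, CD68 and the Fc receptor FCGR1A, had log2 fold changes of -0.50 and -0.82 (adjusted p = 0.409 and 0.144 from limma). Immediate early genes, which rise within minutes of cell stimulation as CXCL8 does, were also lower in part. Of the 8 tested, 6 were lower, 4 of them without overlap (12.6% over all genes), with a median log2 fold change of -0.50 and summed FPKM of 547 to 624 without the chelate, against 431 to 499 with it. The most abundant, IER2 and JUNB, had log2 fold changes of 0.05 and -0.55 (adjusted p = 0.925 and 0.231 from limma). The part of monocyte number or of cell stimulation in the CXCL8 and CXCL16 differences was not tested.

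The inducers of CXCL8 were measured less completely. Of 12 inflammatory inducers and NF-kappa B genes, 7 were tested, and 6 of these were lower, 3 without overlap (12.6% over all genes) and 1 at an unadjusted p under 0.05 (9.1% over all genes), with a median log2 fold change of -0.33. The genes with the lowest unadjusted p were NFKBIA, the inhibitor of NF-kappa B (log2 fold change -0.87, adjusted p = 0.162 from limma), REL and RELA, subunits of NF-kappa B (-0.65 and -0.25), and TNFAIP3, a feedback inhibitor (-0.33). TNF, IL1A, IL6, IL17A and PTGS2 were under the filter on low values.

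Downstream of the receptors, 35 of 36 genes of chemokine receptor signaling were tested, from G protein subunits through phosphoinositide 3-kinase to small GTPases, kinases, arrestins and RGS proteins. None was called by limma, whose lowest adjusted p in the list was 0.176, and 11 were lower and 2 higher at an unadjusted p under 0.05, where the shares over all genes were 9.1% and 6.87%. In the CPP-Se group 26 were lower and 9 higher, with a median log2 fold change of -0.29. The groups did not overlap in 12 of the lower and 3 of the higher genes, beside 12.6% and 10.4% of all genes, so the count of higher genes was near the background. Among the lowest unadjusted p were those of FGR and LYN, SRC family kinases of myeloid cells, with log2 fold changes of -0.81 and -0.65, and of GNG2, a G protein gamma subunit, with -0.81 (adjusted p = 0.176 to 0.1904 from limma). As with CXCR2, these genes had lower values in every CPP-Se dog than in any control dog. The 10 red cell markers had a median log2 fold change of 0.66, with 7 higher and 3 lower. Their most abundant genes, ALAS2 and AHSP, and those of the 5 platelet markers, ITGA2B and TUBB1, had adjusted p of 0.512 to 0.957 from limma, and the platelet markers had a median of -0.23.

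Genes with a pattern like that of a member were sought by the Pearson correlation of log2(FPKM + 1) over the 6 dogs among 8123 genes with a symbol. The closest to CXCL8 were NIBAN1, ATP6V1A and ANKRD11 (r = 0.999, 0.996 and 0.994), and the closest to CXCR2 were GAB2, TMED8 and UBE2A (r = 0.994, 0.993 and 0.993). CXCR3 was most like DISP1, LLGL2 and RUVBL2 (r = 0.998, 0.990 and 0.989), and CXCR4 was most like MCTP1, UTP3 and RIPK2 (r = 0.996, 0.994 and 0.990). With 6 dogs many genes reach such values: a correlation above 0.95 was found with 129 genes for CXCL8, 109 for CXCR2, 40 for CXCR3 and 32 for CXCR4. The closest genes are named as a description, and the dogs share the difference between the groups.

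**Figure D5:**
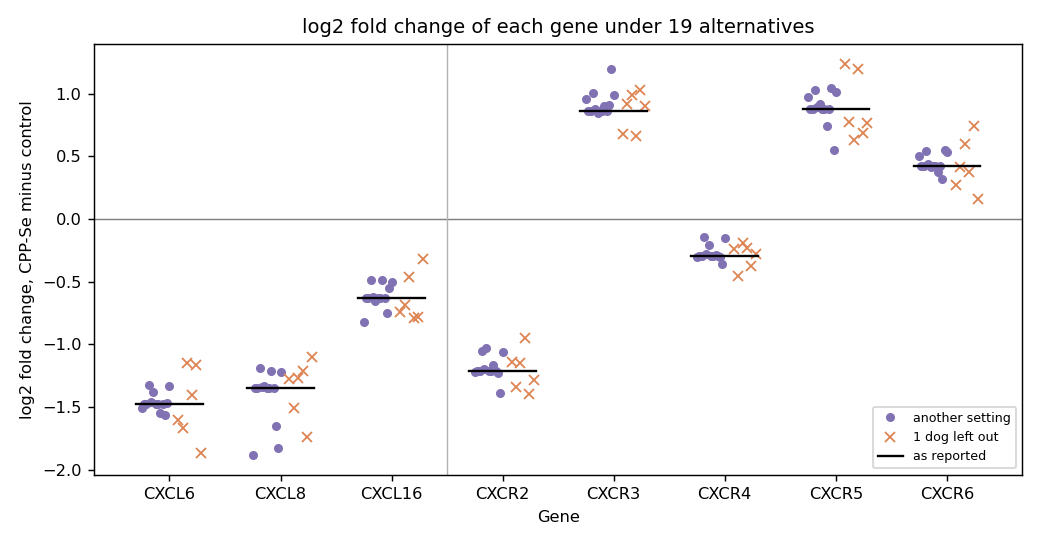
Log2 fold change of each of the 8 members tested, CPP-Se minus control, as reported (line), under 13 other settings (points) and with each of the 6 dogs left out (crosses). The direction of each member is the same under all 19 alternatives, and the spread is widest for CXCL8 and CXCL6. The alternatives of the filter, the empirical Bayes step and the replicate block could not change the fold change.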

How the data were processed

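Whole-blood RNA of 3 control and 3 CPP-Se beagles was sequenced, and the groups were taken from the sample labels. The authors filtered reads with fastp (0.19.7), aligned them with HISAT2 (2.0.5) to the dog genome of an Ensembl release and assembled transcripts with StringTie. featureCounts (1.5.0-p3) is named in the submitters' processing notes. They deposited FPKM per gene with gene positions and lengths. The library size in the FPKM, the use of strand and the treatment of reads matching several genes are not given in the sources used here, and the scaling between dogs could therefore shift every FPKM of a dog. Multiplied by gene length, 100% of the FPKM came out as whole reads of their library (tolerance 0.01 reads), and these reads were recovered. Reads on genes numbered 6598173 to 8067034 per dog. Gene positions are those of the deposited table, and the name of the genome build is not given in the sources used here.

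Genes whose mean reached 1 FPKM (9847 of 31512) were compared on log2(FPKM + 1) with limma (3.58.1, R 4.3.3; linear model, empirical Bayes with a trend), two-sided, with Benjamini-Hochberg adjustment over all of them. Fold changes on this scale understate those of low genes. Single ratios were compared by exact permutation tests (SciPy 1.17.1), which with 3 dogs against 3 cannot go below p = 0.1. The fit was first tested on simulated data, with changes larger than those fitted for the members and a common spread for all genes. That test does not show whether changes of the size of the members' would be called.

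The members and the 12 gene lists were chosen with earlier results of these data known. Named were all members, other rows described as CXC chemokines or receptors, the 4 genes of lowest unadjusted p in the signaling and inducer lists, the 2 most abundant genes of each other list, and the 3 genes most correlated with each of 4 members. Some genes that this rule names are not reported here. Alternatives covered the pseudocount, filter, scaling, variance model, recovered reads, replicate numbers and each dog left out.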

Additional observations from a re-analysis of the deposited data

How the results depend on the processing

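Each of the 8 member fold changes was recomputed under 19 alternatives, and all 152 values kept their direction. On 151 of them the member stayed on the same side of the threshold. Alternatives that changed only the filter, the empirical Bayes step or the replicate block left the fold change exactly as reported. Their direction was therefore fixed in advance. CXCR2 was called by limma-voom with sample quality weights, the 1 member called there, when 156 genes were called (52 higher, 104 lower). Over all genes, where limma called 3, the number was 0 with a pseudocount of 0.1 and 0 without the filter (1537 and 1857 genes at an unadjusted p under 0.05), 12 with a common sum of FPKM (8 higher, 4 lower, with the median of all genes shifted to 0.13 on the log2 scale) and 1 with limma-voom on the recovered reads. The common sum without hemoglobin genes, chosen after seeing the data, gave 2, with a median of 0.12. With 1 dog left out it was 0 to 14, at 14 without CPP-Se replicate 2, 1 without CPP-Se replicate 1 and 0 without each other dog (971 to 1642 genes at an unadjusted p under 0.05). The cause of these changes was not tested. With the replicate number as a block, 1 gene and 0 members were called. The deviations of same-numbered dogs correlated at 0.016, -0.090 and -0.043, and the highest of the 9 correlations was that of control replicate 2 with CPP-Se replicate 3 (0.11). Nothing in the labels pairs dogs of the same number. So few pairs cannot exclude something shared by same-numbered dogs.

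Precision was limited by 3 dogs per group and, for CXCL8, CXCL16 and CXCR6, by as few as 9, 14 and 19 reads in a dog. The dogs are separate animals, each with 1 library.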
